A study of Mus musculus with 4 samples.

Results

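The genes examined were the 8 mouse members of the 2′-5′-oligoadenylate synthetase (OAS) family Oas1a, Oas1b, Oas1c, Oas1g, Oas2, Oas3, Oasl1 and Oasl2, matched by name in a table of 25393 genes. All 8 were found in the table and all 8 had a mean of at least 1 normalized count, the minimum for the fit across genes. The members were chosen on measured values, namely their lower levels in the libraries labelled Tet1 KO, so the comparison of members between the labels is a description and carries no test.

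The table came from RNA-seq of 4 libraries of primary astrocytes from C57BL/6 mice, 2 labelled WT and 2 labelled Tet1 KO. The KO is described as constitutive, so it is not limited to astrocytes. Cells of both labels were taken from cortex and hippocampus at postnatal day 1 with 2 mice pooled per isolation, cultured for about 7 days, shaken at 260 rpm and kept for a further 24 h. The paper calls its RNA-seq repeats biological and describes more of them per genotype than the 2 analysed here, but does not say what set them apart (culture, litter or day), so the spread given here may in part be technical.

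OAS proteins sense double-stranded RNA. On binding it they join ATP into short chains of AMP with 2′-5′ links, known as 2-5A, which act as an alarm signal and lead to the cutting of single-stranded RNA of virus and cell alike. The OAS genes are classical targets of interferon, which acts through the transcription factor complex ISGF3 at a promoter element called the ISRE, and astrocytes and microglia both respond to interferon in this way. The Oas1 gene, which is single in humans, stands in the mouse as a row of copies.

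Values are normalized counts, that is, reads on a gene divided by 1 size factor per library. The libraries held between 18749610 and 22673555 reads on genes, and 1 read was worth between 0.901 and 1.07 normalized counts. The detection floor was set at 3 reads, which corresponded to between 2.70 and 3.21 normalized counts. Libraries of 1 label differed beyond sampling noise, with a median chi-square per gene of 10.4 within WT and 37.8 within the other label, against 0.455 for sampling noise alone. Tet1 itself measured 265.7 and 121.4 normalized counts in WT, against 173.4 and 463.3 in those labelled Tet1 KO (limma log2 difference 0.66, SE 0.65). Tet1 reads outside a deleted exon could remain in a knockout, but the level did not separate the labels, so the libraries are named by their label throughout. Xist, the RNA of the inactive X chromosome, measured 8.54 and 0.92 in WT, against 2896 and 13367 in those labelled Tet1 KO, and 4 Y-linked genes summed to 3765 and 1909 against 0 and 830. These sex-linked genes thus moved with the label, and the part of sex in the results was not tested.

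The whole family was lower in both libraries labelled Tet1 KO. The 8 members summed to 6528 and 5253 normalized counts in WT and to 138 and 227 in the libraries labelled Tet1 KO. The means were 5891 ± 901 and 183 ± 63.0 (SD, n = 2), a 32.3-fold difference. The sum was dominated by Oasl2, and without it the family stood at 1150 and 972 in WT against 87.8 and 91.0, or 1061 ± 126 against 89.4 ± 2.31 (SD, n = 2), which is 11.9-fold. The recovered reads behind the family were 6118 and 5713 in WT, compared with 129 and 252 in those labelled Tet1 KO. All 8 members reached the floor of 3 reads in each WT library, whereas 3 and 5 members did so in the libraries labelled Tet1 KO, where 3 members and 1 member had no read at all.

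**Figure D1:**
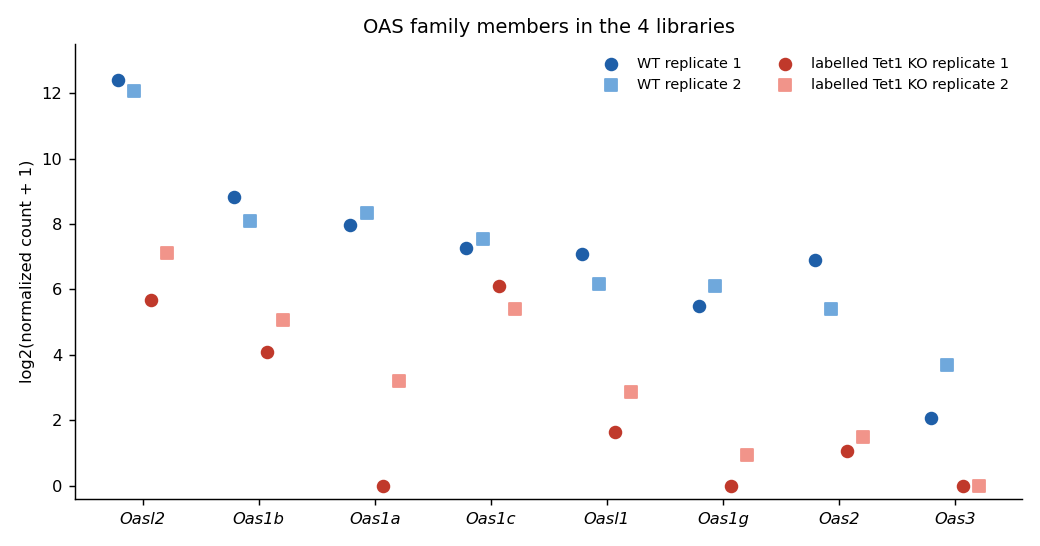
Levels of the 8 OAS members in each library, as log2(normalized count + 1) on the y axis with the genes on the x axis in the order of their level per length in WT. Each point is 1 library, blue for WT and red for libraries labelled Tet1 KO, and for every member both red points lie below both blue ones, with Oas3 at 0 in both.

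Oasl2 (ENSMUSG00000029561, chr5:114896936-114912234, plus strand, GRCm38) was by far the most abundant member in WT. Its protein is an OAS-like enzyme that carries ubiquitin-like domains at its end. It measured 5378 and 4282 normalized counts in WT, against 50.3 and 136 in those labelled Tet1 KO. Both of the latter were low and the groups lay far apart, with means of 4830 ± 775 and 93.2 ± 60.7 (SD, n = 2), a 51.8-fold difference, and a limma log2 difference of −5.84 (SE 0.53) on the log2(normalized count + 1) scale. The lower library was replicate 1, and the gap of 2.71-fold between the libraries labelled Tet1 KO was wider than the 1.26-fold gap within WT.

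Oasl1 (ENSMUSG00000041827, chr5:114923240-114937915, plus strand), the neighbour of Oasl2, encodes an OAS-like protein without synthetase activity that is known to hold back translation of Irf7, a master regulator of interferon genes. It measured 133 and 70.8 normalized counts in WT, against 2.14 and 6.31 in those labelled Tet1 KO. These rested on 2 and 7 reads, the first below the floor. The groups did not overlap, the means were 102 ± 44.2 and 4.23 ± 2.95 (SD, n = 2), 24.2-fold apart, and the log2 difference was −4.36 (SE 0.77).

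Oas1a (ENSMUSG00000052776, chr5:120896256-120907521, minus strand) encodes an active synthetase and had a fitted log2 difference of −6.56 (SE 1.13), the lowest of the family in limma. In DESeq2 and edgeR Oas1g was lower, at −6.84 and −6.57 against −6.09 in both for Oas1a. Oasl2 was lower than Oas1a without Tet1 KO replicate 1, at −5.13 against −4.97, and with a pseudocount of 5. With FPKM as the tested value Oasl2 was lower too, at −4.50 against −2.93. Oas1a measured 250 and 325 normalized counts in WT, against 0 and 8.11 in those labelled Tet1 KO. WT was high in both libraries, while in replicate 1 labelled Tet1 KO no read was found and in replicate 2 there were 9 reads. The means were 287 ± 53.0 and 4.06 ± 5.74 (SD, n = 2), and their ratio was 70.8.

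Oas1g (ENSMUSG00000066861, chr5:120876142-120887613, minus strand), a further active synthetase copy next to Oas1a, measured 43.7 and 68.0 normalized counts in WT, against 0 and 0.901 in those labelled Tet1 KO. The latter held 0 reads and 1 read, both under the floor. The ratio of summed reads, scaled for depth, was 116 with a 95% interval of 20.4 to 4624, which covers counting error only. Reads of Oas1a and Oas1g cannot be fully told apart. Of all stretches of 100 bases in the GENCODE M21 transcripts of Oas1a, 40.9% also occurred in Oas1g, and 31.3% of those of Oas1g occurred in Oas1a, whereas for the other 6 members the share was 0%. Of stretches of 50 bases, 57.6% for Oas1a and 45.7% for Oas1g also occurred in another gene. For Oas1c this share was 9.82%, for Oas1b 2.78% and for each other member at most 0.310%. How the authors assigned reads that match more than 1 gene is not given in the sources used here. The split between Oas1a and Oas1g is therefore uncertain, and their low level in the libraries labelled Tet1 KO was common to both.

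Oas1b (ENSMUSG00000029605, chr5:120812635-120824163, plus strand) is the copy known from flavivirus resistance of wild mice. C57BL/6 carries a shortened form, and the table lists the gene as a polymorphic pseudogene. It measured 449 and 270 normalized counts in WT, against 16.1 and 32.4 in those labelled Tet1 KO. The groups did not overlap, with means of 360 ± 126 and 24.3 ± 11.6 (SD, n = 2), 14.8-fold apart, and a log2 difference of −3.87 (SE 0.57). The RNA was thus present in WT although its reading frame is cut short. In the GRCm38 transcript Oas1b-203, whose annotated coding stretch spans 376 codons, the frame meets a stop codon after 252 codons, at chr5:120821308-120821310 on the plus strand. The 33 bases around that stop are shown to place it, in capitals, beside the codon at the same place in Oas1a and Oas1g, which is codon 258 of frames of 367 codons each. The stretches of Oas1a and Oas1g shared 31 of the 33 bases with Oas1b.
Oas1b: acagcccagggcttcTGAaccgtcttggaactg
Oas1a: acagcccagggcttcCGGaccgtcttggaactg
Oas1g: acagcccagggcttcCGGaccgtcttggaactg

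Oas1c (ENSMUSG00000001166, chr5:120800194-120812514, minus strand) was the member that differed least on this scale. With a pseudocount of 5 it was Oas3, at −1.24 against −1.57 for Oas1c, and with FPKM as the tested value Oas3, Oas2 and Oas1g differed less than Oas1c. It encodes an Oas1-type protein known to lack synthetase activity. It measured 154 and 185 normalized counts in WT, against 68.5 and 41.5 in those labelled Tet1 KO, with means of 169 ± 22.1 and 55.0 ± 19.1 (SD, n = 2). The groups did not overlap, but the means were only 3.08-fold apart and the log2 difference was −1.64 (SE 0.49).

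Oas2 (ENSMUSG00000032690, chr5:120730333-120749853, minus strand) and Oas3 (ENSMUSG00000032661, chr5:120753098-120777661, minus strand) carry more than 1 OAS unit in a single protein, and Oas3 prefers long double-stranded RNA. Oas2 measured 117 and 41.4 normalized counts in WT, against 1.07 and 1.80 in those labelled Tet1 KO. The latter rested on 1 and 2 reads, under the floor, and the depth-scaled ratio of summed reads was 52.2 with a 95% interval of 17.5 to 256. Oas3 was scarce everywhere, at 3.20 and 11.95 normalized counts in WT and at 0 in both libraries labelled Tet1 KO. Its 3 reads in WT replicate 1 were at the floor and its 13 reads in replicate 2 above it. Against a floor of 3 reads over both libraries of that label together, it was at least 5.38-fold lower in the libraries labelled Tet1 KO. With the counting error of the WT reads included, the lower 95% limit of that ratio was 3.89.

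Set beside all genes tested, the members stood at the low end of the comparison from which they had been chosen, so nothing is read from these counts. Their median log2 difference was −4.62 and their range −6.56 to −1.64, while the median of all 22094 genes tested was −0.07 and the 1st percentile −4.03. With Oas3 at its bound the members' median was again −4.62. Both libraries labelled Tet1 KO lay below both WT libraries for 8 of 8 members, as they did for 25.4% of all genes. All 8 members were lower at an unadjusted limma p under 0.05, as were 9.18% of all genes, and 0 members passed after Benjamini-Hochberg adjustment, as was the case for 0% of all genes. DESeq2 on the recovered reads called 6 of 8 members lower, against 3.63% of all genes. It did not call Oas1c and gave Oas3 no adjusted value.

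Per length the members' order in WT was the same with the length of the table and with that of the longest GENCODE transcript. In WT, reads scaled to gene length and to the total reads on genes (FPKM) ran from 37.2 ± 7.04 for Oasl2 through 8.89 ± 3.37 for Oas1b, 7.44 ± 1.16 for Oas1a, 3.44 ± 0.348 for Oas1c, 1.93 ± 0.887 for Oasl1, 1.16 ± 0.326 for Oas1g and 0.882 ± 0.617 for Oas2 to 0.0519 ± 0.0414 for Oas3 (SD, n = 2). The values of Oas1b and Oas1a overlapped between libraries, as did those of Oasl1 and Oas1g and of Oas1g and Oas2. The neighbours Oasl2 and Oas1b, Oas1a and Oas1c, Oas1c and Oasl1, and Oas2 and Oas3 did not overlap in WT. In the libraries labelled Tet1 KO the order differed from WT, and with the table's lengths Oas1c had the highest mean FPKM, 1.07 ± 0.305, above Oasl2 with 0.707 ± 0.496 and Oas1b with 0.585 ± 0.313 (SD, n = 2). With the longest transcript Oasl2 came first instead, at 1.44 against 1.12 for Oas1c. Oas1c lay above Oas1b in both libraries, while the values of Oasl2 overlapped with those of both, so the place of Oasl2 is not settled by these data.

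The make-up of the family differed accordingly. Oasl2 gave 82.4% (95% Wilson interval 81.4 to 83.3) and 81.5% (80.5 to 82.5) of the family's reads in WT replicates 1 and 2. In the libraries labelled Tet1 KO it gave 36.4% (28.6 to 45.0) of 129 reads and 59.9% (53.8 to 65.8) of 252 reads. Oas1c gave 2.35% and 3.52% in WT, but 49.6% (41.1 to 58.1) and 18.3% (13.97 to 23.5) in the libraries labelled Tet1 KO. The shares of Oasl2 were lower, and those of Oas1c higher, in both libraries labelled Tet1 KO than in either WT library, while the libraries of that label also differed from each other beyond counting error.

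**Figure D2:**
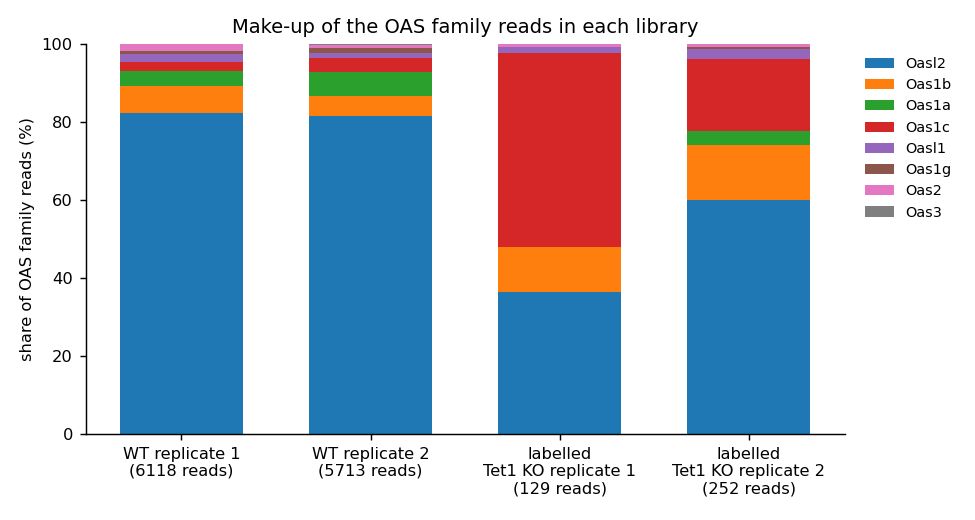
Share of each member among all OAS family reads (y axis, percent) in each library (x axis, with the number of family reads). Oasl2 fills 82.4% and 81.5% of the WT bars, while Oas1c takes 49.6% and 18.3% of the bars of the libraries labelled Tet1 KO.

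The members lie in 2 clusters on mouse chromosome 5 (GRCm38), in a row of 41.0 kb for Oasl2 and Oasl1 and of 177 kb for Oas2, Oas3, Oas1c, Oas1b, Oas1g and Oas1a, 5.79 Mb apart. Oas1c and Oas1b stand head to head, with 120 bases between them. Because the members were lower together, the bases just upstream of their RefSeq start sites were read for 3 interferon and core promoter motifs. RefSeq promoter windows of 300 bases were found for 6 of the 8 members, those without one being Oas1b and Oas2. The ISRE core was searched as GAAA, any 2 bases, GAAA on both strands, and a paired core as GAAA 3 times in the same spacing, so that each paired core holds 2 overlapping single cores. The sequences below (GRCm38.p6, RefSeq, 5′ to 3′ along the strand given) are shown with these matches in capitals. They are 100 bases on the minus strand upstream of Oas1a at chr5:120907526-120907625, of Oas1g at chr5:120887614-120887713 and of Oas3 at chr5:120777660-120777759, and the 120 bases between Oas1c and Oas1b on the plus strand at chr5:120812515-120812634.
Oas1a: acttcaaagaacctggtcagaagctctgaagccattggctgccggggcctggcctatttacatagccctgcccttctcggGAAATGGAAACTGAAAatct
Oas1g: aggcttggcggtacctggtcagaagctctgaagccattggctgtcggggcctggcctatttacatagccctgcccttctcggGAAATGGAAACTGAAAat
between Oas1c and Oas1b: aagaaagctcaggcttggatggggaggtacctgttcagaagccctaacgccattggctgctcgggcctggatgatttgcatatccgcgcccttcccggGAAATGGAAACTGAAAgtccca
Oas3: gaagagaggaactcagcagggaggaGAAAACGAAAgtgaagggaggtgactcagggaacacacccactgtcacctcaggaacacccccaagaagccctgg

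The same 16 bases held the paired core at Oas1a, at Oas1g and in the stretch shared by Oas1b and Oas1c. They ended 5 bases before the start of Oas1a and 3 bases before that of Oas1g, and they lay 22 to 7 bases before the first base of Oas1b. Seen from Oas1c they were on the opposite strand, 114 to 99 bases before its start. Over the 90 bases that end with the paired core, Oas1a and Oas1g shared 86 bases, and each shared 74 with the stretch before Oas1b. Among the Oas1 genes that share this element, Oas1a, Oas1g and Oas1b were 3.87 to 6.56 lower on the log2 scale and Oas1c 1.64 lower. Oas3 held a single core further upstream, and no core was found in the windows of Oasl1 and Oasl2. Of 32851 RefSeq promoter windows of this length, 3.44% held at least 1 ISRE core and 0.116% a paired core. Of the other motifs, the STAT element TTCNNNGAA was found in the Oas1a window and in 8.30% of all windows, and TATAAA in the Oasl2 window and in 13.6%. A match describes letters in these windows and does not show that a factor was bound.

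The remaining Oas1 copies were near or below the floor. Oas1h measured 6.40 and 8.28 normalized counts in WT and 0 in both libraries labelled Tet1 KO (limma log2 difference −3.05, adjusted p = 0.219). Oas1f measured 2.13 and 0 in WT, against 1.07 and 0.90 in the others. At this depth no level above the floor was detectable for Oas1f in any library.
Oas1h lies inside the row of Oas1 genes, and the 100 bases upstream of it at chr5:120861322-120861421 on the plus strand, shown for comparison, held no ISRE core.
Oas1h: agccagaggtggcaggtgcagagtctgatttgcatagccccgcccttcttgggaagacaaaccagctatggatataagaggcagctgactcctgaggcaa

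The genes around the clusters were compared to see whether whole stretches of the chromosome were lower. Within 250 kb of the Oasl genes, 24 other genes were listed and 20 tested, with a median log2 difference of −0.06. Of these, 3 were lower and 7 higher without overlap between the labels, against 25.4% and 22.5% of all genes. Only Cabp1, a neuronal calcium-binding protein gene 231 kb away, was lower at an unadjusted limma p under 0.05, with 235 and 262 normalized counts in WT, against 37.5 and 50.5 in those labelled Tet1 KO (adjusted p = 0.157 in limma and 0.000222 in DESeq2). The nearest genes on either side were 2210016L21Rik, with 1182 and 1144 in WT and 1304 and 951 in the others, and Gm9936, at 3.20 and 1.84 against 1.07 and 0.90. Gm13822, an antisense gene between Oasl2 and Oasl1 that overlaps the start of Oasl1, had 3 reads in all.

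Within 250 kb of the Oas1, Oas2 and Oas3 genes, 17 other genes were listed and 16 tested, with a median log2 difference of −0.66. Of the 16 tested, 9 were lower and 1 higher without overlap, against 25.4% and 22.5% of all genes, so that genes lower without overlap made up a larger share here than over the whole table. Of these genes Oas1h alone was lower at an unadjusted limma p under 0.05, and 0 were higher. The nearest genes outside the row were Dtx1, a Notch pathway gene, with 1466 and 1974 normalized counts in WT, against 1169 and 524 in those labelled Tet1 KO (limma log2 difference −1.12, adjusted p = 0.380), and Rph3a, which was at or below 11.7 normalized counts in every library. The members' fitted differences in this cluster ranged from −6.56 to −1.64. Oas1c, at −1.64, was level with the neighbours Rasal1 at −1.64, which had at most 4 reads in a library, and Iqcd at −1.52.

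**Figure D3:**
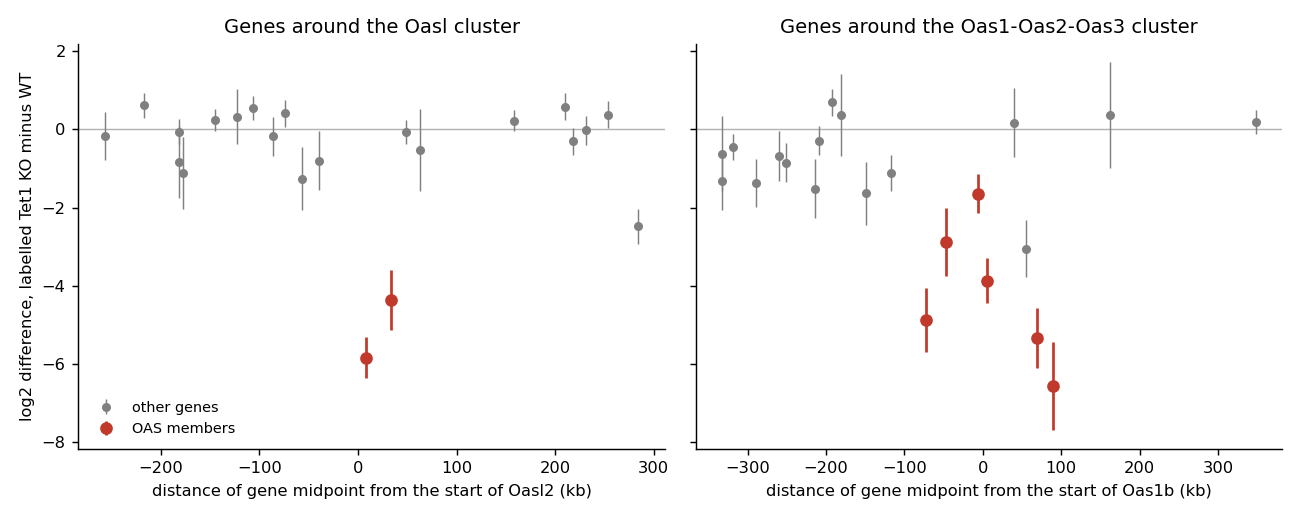
Fitted log2 difference, labelled Tet1 KO minus WT (y axis, bars ± SE), of genes by the distance of their midpoint in kb from the start of Oasl2 (left) or Oas1b (right). Red points are OAS members and grey points the other genes tested, most of which lie near 0 on the left and between −2 and 1 on the right, with Oas1h at −3.05.

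None of 5 listed genes that break down 2-5A or are linked to its signalling passed the unadjusted limma threshold. Abce1, an ATPase of ribosome recycling, measured 1214 and 726 normalized counts in WT, against 1022 and 3402 in those labelled Tet1 KO (adjusted p = 0.541 in limma). The 2-5A degrading enzymes Pde12 and Enpp1 measured 433 and 312 against 347 and 437, and 11.7 and 19.3 against 34.3 and 38.8. Akap7, of a family with 2-5A cleaving activity, measured 497 and 297 against 293 and 290, and Dap3, a mitochondrial ribosome protein, 1128 and 1004 against 1659 and 1198. Their adjusted limma p ranged from 0.459 to 0.941. At an unadjusted p under 0.05, 0 of the 5 were lower and 0 higher, against 9.18% and 4.54% of all genes.

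Outside the members, 87 genes of the interferon and 2-5A pathways were looked up, in lists that cover regulators of OAS expression, other interferon-induced genes, the other Oas1 copies and genes of 2-5A degradation. Of these 87 genes, 65 were listed and 64 tested. At an unadjusted limma p under 0.05, 37 were lower and 0 higher, against 9.18% and 4.54% of all genes. The median log2 difference of the 64 was −1.495. After adjustment over all genes 0 passed in limma, with 0.0777 as the lowest adjusted p. edgeR likewise called 0 genes of the whole table after adjustment, while DESeq2 called 1088. Of the 64 pathway genes DESeq2 called 29 lower, against 3.63% of all genes, and 0 higher. Leaving out WT replicate 2 left 24 pathway genes lower at an unadjusted p, and leaving out WT replicate 1 left 27. Over all genes 2028 were lower and 1004 higher at an unadjusted p, a split that became 1490 and 1417 after quantile normalization. That scaling moved the median of all genes from −0.07 to 0.08. With 2 libraries per label the two-sided p of an exact permutation test on any 1 value is at least 0.33.

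The interferons themselves were not detectable at this depth beyond a few reads. Of 21 interferon genes looked up, 2 were listed. Ifnz measured 0 and 2.76 normalized counts in WT, against 8.56 and 0.90 in those labelled Tet1 KO. Ifnk had 1 read in each of 2 libraries.

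Among the sensors of double-stranded RNA and their partners, 6 of 11 genes tested were lower at an unadjusted p, against 9.18% of all genes. DESeq2 called 4 lower after adjustment, against 3.63% of all genes. Ddx58, the RIG-I helicase, measured 3151 and 2380 in WT, against 739 and 830 in those labelled Tet1 KO, 3.53-fold apart. The signalling adaptor Mavs measured 949 and 1170 against 901 and 580, and Prkra, a partner of the kinase PKR, 547 and 550 against 795 and 578. Neither passed the unadjusted threshold.

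Of the interferon receptors and ISGF3, 6 of 11 genes were lower at an unadjusted p, against 9.18% of all genes. The median log2 difference was −0.94. By FPKM the first of the list was Ifngr1, a chain of the interferon-gamma receptor, with 2003 and 2514 normalized counts in WT, against 1122 and 967 in those labelled Tet1 KO (limma adjusted p = 0.248). The kinase Jak1 measured 3448 and 2837 against 4044 and 3806, and the type I receptor chain Ifnar1 1619 and 2064 against 2154 and 2303. Neither passed, and both had slightly higher means in the libraries labelled Tet1 KO. Stat2 and Irf9, parts of ISGF3, were named after their values were seen, because ISGF3 acts at the ISRE. Stat2 measured 2503 and 2725 against 358 and 323, and Irf9 2211 and 2463 against 823 and 352. Their adjusted p was 0.0777 and 0.197 in limma, and 3.69e-10 and 0.0107 in DESeq2.

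Among the interferon regulatory factors 5 of 8 were lower at an unadjusted p, against 9.18% of all genes, with a median log2 difference of −2.14. Irf7 measured 1576 and 1103 normalized counts in WT, against 35.3 and 20.7 in those labelled Tet1 KO, 47.8-fold apart, and Irf1 1331 and 1354 against 520 and 609. Irf3, which is activated by phosphorylation and not by new synthesis, measured 751 and 944 against 892 and 821.

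Of the feedback genes 4 of 8 were lower at an unadjusted p, against 9.18% of all genes. Isg15, a ubiquitin-like modifier, measured 1944 and 2427 against 55.7 and 61.3, and the cytokine signalling inhibitor Socs3 1302 and 2340 against 858 and 680. The phosphatase Ptpn11 measured 6220 and 7732 against 8710 and 7087 and did not pass.

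Antiviral effectors, the genes induced beside OAS, were the list with the highest count. At an unadjusted p 15 of 18 were lower, against 9.18% of all genes, with a median log2 difference of −3.27. DESeq2 called 15 lower after adjustment, against 3.63% of all genes. Ifitm3, which blocks viral entry, measured 13369 and 15565 normalized counts in WT, against 3111 and 1679 in those labelled Tet1 KO. Bst2, which tethers virus particles, measured 5870 and 7966 against 647 and 830, and Ifit3, of the interferon-induced tetratricopeptide proteins, 12257 and 7201 against 713 and 256. Ifit3 may share reads with its close copy Ifit3b. The 3 that did not pass were Ifit2, Samhd1 and Ifit1bl1.

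**Figure D4:**
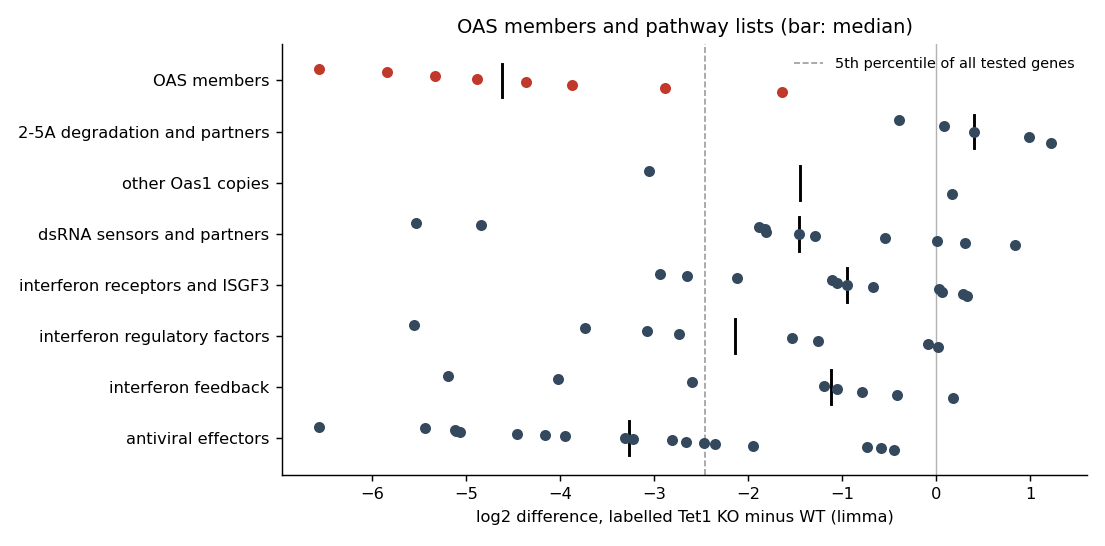
Fitted log2 difference, labelled Tet1 KO minus WT (x axis), of each tested gene in the OAS family (red) and in 7 pathway lists (dark points), with the list median as a black bar and the 5th percentile of all tested genes, −2.46, as a dashed line. Medians run from −4.62 for the OAS members and −3.27 for antiviral effectors to 0.41 for the genes of 2-5A degradation and its partners.

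Genes whose profile over the 4 libraries was most like that of the family were found among 12863 genes with a mean of at least 50 normalized counts, by the root mean square distance to the mean centred log2 profile of the 7 members with a mean of at least 10. The nearest was Helz2, a helicase that acts as a nuclear receptor coactivator, at a distance of 0.123, with 1184 and 1025 normalized counts in WT, against 33.2 and 76.6 in those labelled Tet1 KO. Next came Dhx58, the LGP2 helicase of the double-stranded RNA sensors, at 0.131, with 445 and 399 against 8.56 and 21.6. The third was the ribosomal protein gene Rpl29 at 0.144, with 1398 and 1339 against 43.9 and 75.7. Ribosomal protein genes have processed copies that can share reads, so this value is uncertain. The others, up to a distance of 0.327, were Scn7a, Trim30a, Dnm1, Cp, Gsdmd, Lgals9 and Mx2. Among the members themselves Oasl1 was nearest to the mean profile, at 0.259, and Oas1c farthest, at 1.64. The profile has only 4 points, at 2.48 and 2.17 in WT and at −2.85 and −1.79 in those labelled Tet1 KO.

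Markers of other cells moved with the label too. Of 18 microglia markers 17 were listed and 16 tested. Of the 16, 15 were lower without overlap, against 25.4% of all genes, with a median log2 difference of −3.25. The 17 listed summed to 2915 and 5028 normalized counts in WT, against 1134 and 672 in those labelled Tet1 KO. There P2ry13 was at 0 in both libraries and P2ry12 in 1 of them, while both were at or below 6.40 in WT. C1qa measured 268 and 442 against 33.2 and 5.41, and Cx3cr1 measured 112 and 349 against 23.6 and 11.7. The 12 astrocyte markers summed to 195258 and 192890 in WT and to 297478 and 54005 in the libraries labelled Tet1 KO. The sums of the libraries labelled Tet1 KO thus lay on either side of WT. Gfap weighed heavily in these sums, with 58004 and 67297 in WT, against 174853 and 9945 in those labelled Tet1 KO. By gene, 6 of the 12 were lower and 1 higher without overlap, against 25.4% and 22.5% of all genes. The median log2 difference of the 12 was −0.73. The OAS sum was low in both libraries labelled Tet1 KO. It was lower in replicate 1, the library of that label with the higher sums of astrocyte and of microglia markers. Some neuron markers went the other way. Of 6 tested, 4 were higher and 0 lower without overlap, against 22.5% and 25.4% of all genes, with a median log2 difference of 1.73. Of these 4, Rbfox3 had 52 reads in replicate 1 labelled Tet1 KO and at most 2 in any other library. Dcx, also among them, had at most 7 reads in a library. The more abundant Map2 and Stmn2 overlapped between the labels, with log2 differences of −0.01 and 0.53. Tubb3 measured 52.3 and 80.9 against 170 and 307, while the sum of the 7 neuron markers was 4334 and 3817 against 4797 and 4618. The summed oligodendrocyte lineage, endothelial and mural markers overlapped between the labels. In bulk RNA fewer cells of a type and less RNA per cell cannot be told apart, and the part of cell composition in the OAS result was not tested.

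**Figure D5:**
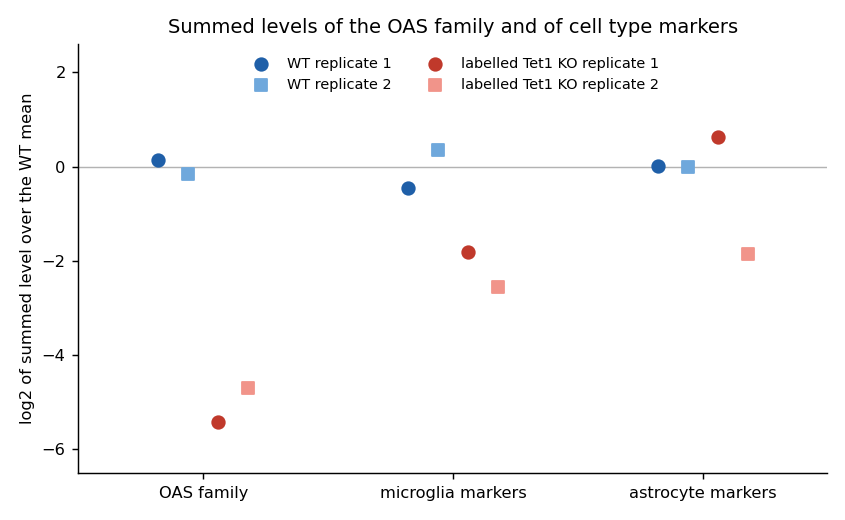
Summed normalized counts of the OAS family, of 17 microglia markers and of 12 astrocyte markers, as log2 of each library's sum over the WT mean (y axis), 1 point per library. The libraries labelled Tet1 KO stand at −5.41 and −4.70 for the OAS family, at −1.81 and −2.56 for microglia markers and at 0.62 and −1.85 for astrocyte markers.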

How the data were processed

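RNA-seq libraries were grouped by their labels. Per the study's methods, the authors filtered paired-end reads and aligned them to mm10; aligner, counter and annotation are not given in the sources used here. The deposited values, a signal named for FPKM, held each gene's reads over 1 size factor per library, with no length correction, and 100% of them were whole multiples of 1 read (tolerance 0.1 read), so whole reads were recovered. The authors also deposited group means, log2 fold changes and p-values, which were not used. The fit planned for FPKM was run on these normalized counts. limma 3.58.1 in R 4.3.3 (eBayes with trend) was applied to log2(normalized count + 1), which understates differences of low genes, keeping the 22094 genes whose mean reached 1. p-values were adjusted by Benjamini-Hochberg, threshold 0.05. The reads were also tested in DESeq2 1.42.0 and by the quasi-likelihood test of edgeR 4.0.16. All 3 were tested on simulated counts with 200 changed genes. FPKM used the table's gene lengths. Members and lists were chosen with earlier results of these data known. Named genes were all members, Oas1 copies and genes of 2-5A degradation and its partners, the 3 of highest FPKM in each other list, listed interferons, neighbours past the unadjusted threshold or nearest, and the 10 nearest profiles. Stat2, Irf9, Gm13822, Rasal1, Iqcd, single cell type markers and effectors not called were named after their values were seen. The promoter stretches and motifs come from RefSeq (GRCm38.p6), transcripts from GENCODE M21. Planned protein comparisons were not made, and some planned results are not reported here.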

Additional observations from a re-analysis of the deposited data

How the results depend on the processing

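All 8 members were below 0 under every one of 15 alternatives that could give a value, 119 values in all, and Oas3 was left out only by the mean minimum of 5. The members had been chosen for their lower levels, and for each of them both libraries labelled Tet1 KO lay below both WT libraries. A change of pseudocount, filter, trend or block, or leaving out 1 library, thus could not turn a sign. Nothing is therefore read from this count. The members' median log2 difference, −4.62, was −5.70 and −3.53 with pseudocounts of 0.1 and 5, −1.26 with FPKM as the tested value, −5.72 in edgeR and −5.54 in DESeq2. A pseudocount of 1 is large beside the low FPKM of most members. Leaving out each library in turn gave medians of −5.03 to −4.02. After adjustment DESeq2 called 1088 genes and all limma and edgeR settings 0. Without each library in turn, 862 to 3026 genes were lower and 273 to 1820 higher at an unadjusted p, and 24 to 35 pathway genes were lower and 0 to 2 higher. The 862 and 273 were without WT replicate 1, the 3026 and 1820 without Tet1 KO replicate 1, and without WT replicate 2 the counts were 897 and 483. The pathway genes higher numbered 2 with quantile normalization and 1 with eBayes without a trend. Same-numbered libraries did not deviate together (r = −0.0842 over genes), so the replicate numbers were not taken as pairs. With a replicate block 1821 genes were lower and 762 higher, and the members' median was −4.62. Members with under 10 reads in the libraries labelled Tet1 KO, that is Oas1a, Oas1g, Oas2, Oas3 and Oasl1, have fold differences limited by depth, and for Oas3 also by WT. The causes of these shifts were not tested.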

Other observations

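Genes other than the members with the same paired ISRE core in their RefSeq promoter window were looked up after the family's sequences had been seen, as a description without a test. Of 36 genes with such a window, 22 were tested, and 19 of them were not members. Both libraries labelled Tet1 KO lay below both WT libraries for 12 of these 19 (63.2%) and above them for 1, with a median log2 difference of −1.05. At an unadjusted limma p under 0.05, 8 of the 19 were lower and 1 higher, against 9.18% and 4.54% of all genes. Isg15, Bst2 and Socs1, among the 12, were also on the pathway lists. Some of the 12 differed little, such as Rab19 with 9.60 and 9.20 in WT, against 7.49 and 4.51. Of the 483 genes outside the members with only a single core, 34.2% were lower without overlap, and of the 13482 with any window 25.6%. At the low end stood the apolipoprotein genes Apol9a, with 671 and 742 normalized counts in WT, against 1.07 and 18.9 in those labelled Tet1 KO, and Apol9b, with 558 and 581 against 4.28 and 15.3. These are close copies that may share reads. Gbp3, a guanylate-binding protein gene, measured 3589 and 2501 against 199 and 193. Tlr6 went the other way, with 23.5 and 39.5 in WT, against 370 and 150 in those labelled Tet1 KO.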
